A study of Rattus norvegicus with 6 samples.

Results

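Hrg, Ahsg, Fetub, Kng1 and Cst3 are 5 rat genes whose proteins share the cystatin fold, and they are described here in the renal cortex of rats given an aromatic diamine. They were taken by name, with every array probe whose RefSeq accession belongs to them: 10 probes (2 for Hrg, 3 for Ahsg, 1 for Fetub, 2 for Kng1 and 2 for Cst3) of 61537 non-control probes, or 5 of 12130 genes tested. The study measured total RNA from the cortex of 6 male Sprague-Dawley rats bought at 5 weeks of age, 1 Cy3 array per animal, in 2 groups of 3 biological replicates. Control animals received corn oil for 4 weeks. Treated animals received 4-hydroxy-m-phenylenediammonium dichloride at 100 mg/kg/day for 4 weeks, in a vehicle that the sources used here do not state. The set was built around Hrg after its difference between the groups was known, so all differences between the groups in these 5 genes are a description with no test.

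The cystatin fold is a small domain that, in its ancestral form, plugs the active site of papain-like cysteine proteases such as the lysosomal cathepsins. Cystatin C, the product of Cst3, is a single such domain secreted by nearly all nucleated cells, filtered by the glomerulus and broken down in the proximal tubule. Kininogens carry several cystatin domains beside the bradykinin sequence that kallikreins cut out. The fetuins and histidine-rich glycoprotein are plasma proteins, made mostly by the liver, in which the cystatin domains serve other ends. Fetuin-A (Ahsg) keeps calcium phosphate in solution, fetuin-B (Fetub) inhibits astacin-type metalloproteases such as ovastacin, and histidine-rich glycoprotein (Hrg) binds heparin, zinc, plasminogen, fibrinogen and thrombospondin.

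All 10 probes were well above background on all 6 arrays. Levels are log2 signals minus the 75th percentile of the array, so 0 is the signal of a probe at that percentile, and levels of different probes are not set against each other. The 3 control arrays lay on 1 slide and the 3 treated arrays on another, scanned separately, so a slide effect and a treatment effect cannot be told apart. Of 10 spike-in transcripts, 7 were above background on all spots. After the same scaling their median difference, treated minus control, was -0.13. All 7 were lower, from -0.19 to -0.065. All 16 proximal tubule markers and all 5 podocyte markers were well above background on every array, so the defining transcripts of renal cortex were present. Control replicate 3 stood apart for genes known from the liver, and control replicate 2 for another set of genes, as given with Ahsg and Kng1. In bulk tissue, fewer cells of a type and less RNA per cell cannot be told apart.

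The 3 treated animals all had less Hrg signal than the 3 controls, by about the same amount at both of its probes. At its brighter probe, A_64_P024394, the levels were 3.39, 3.43 and 3.49 in controls and 2.47, 2.45 and 2.47 in treated animals. At A_44_P496422 they were 3.03, 3.07 and 3.06 against 1.95, 2.05 and 1.97. Each group was tight and the groups were far apart: at the brighter probe a gap of 0.92 separated the lowest control from the highest treated value, while values spread over 0.098 within controls and 0.022 within treated animals. The mean difference, treated minus control, was -0.97 (SE 0.029, n = 3 each), which is 1.96-fold lower, at the brighter probe. At the other probe it was -1.06 (SE 0.033), or 2.08-fold lower. The probes were read on the same RNA and are not independent replicates.

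Hrg varied less between animals of a group than most genes did. Its pooled standard deviation within groups was 0.036, where the median over all genes tested was 0.12, and 4.32% of genes had a smaller one. By size alone its difference was not rare, since 121 other genes had a decrease at least as large. Of those genes, 66 showed no overlap between the groups and 9 passed an adjusted p of 0.05 in the limma fit over all genes. Hrg was the only one of the 5 genes past that threshold, in a fit that called 1.33% of all genes lower and 3.05% higher, 4.38% in all. Nothing is read from that call, because the set was chosen on this contrast. At the brighter probe, leaving out any 1 array left the Hrg difference between -0.99 and -0.94. The call was kept without control replicate 2 or treated replicate 1, and was lost without control replicate 1 or 3 or treated replicate 2 or 3, when 0 genes of the array were called and 2437 to 2647 had an unadjusted p under 0.05.

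Markers of several cell types differed between the groups in the same arrays. Of 7 red blood cell markers tested (of 8 listed), Gata1 was well above background on 0 of 3 control arrays and entered the fit only through the treated group, so it is not counted. The other 6 had a higher mean in treated animals, 5 of them without overlap (14.1% of all genes were higher without overlap). Limma called 0 of the 6. At an unadjusted p under 0.05, where 11.8% of all genes were higher, 5 of the 6 were higher. Their summed signal, most of it from the globin gene Hbb, was 145 to 189 in controls and 222 to 329 in treated animals. Of 16 proximal tubule markers, 13 had a lower mean, with a median difference of -0.078 against -0.030 for all genes tested. Aqp1, the water channel, fell by 0.58 on the log2 scale (limma adjusted p = 0.034). Without overlap, 3 of the 16 were lower and 1, Gatm, was higher (difference 0.19). All 6 collecting duct markers had a lower mean (median difference -0.20), with Elf5 called (adjusted p = 0.028). Their sums were 165 to 186 against 134 to 178. Of 5 distal and connecting tubule markers, Slc12a3 and Klk1 had higher means, by 0.15 and 0.13, with overlapping groups. Calb1, Trpv5 and S100g had lower means, with S100g, a calcium-binding protein gene, called (adjusted p = 0.044). The list's median difference was -0.49. The sum of the 5 markers, carried mostly by Klk1, was 187 to 201 against 181 to 230. Without Klk1 it was 25.1 to 31.9 against 25.4 to 29.6. Of 8 leukocyte markers, Cd3e was well above background on 1 of 3 control arrays and entered the fit only through the treated group. It is not counted either. Of the other 7, 3 had a higher and 4 a lower mean, with 0 called by limma. At unadjusted p values under 0.05, 1 was higher and 2 lower, where 11.8% and 13.2% of all genes passed. Cd52, a lymphocyte surface protein gene named after its values were seen, had the largest difference of that list, 2.41 without overlap (adjusted p = 0.073). Itgam and Coro1a of the same list were lower without overlap, by 0.66 and 0.32 (limma adjusted p = 0.101 and 0.148). Of all genes, 18.7% were lower without overlap. The part of these cell types in the Hrg difference was not tested.

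**Figure D1:**
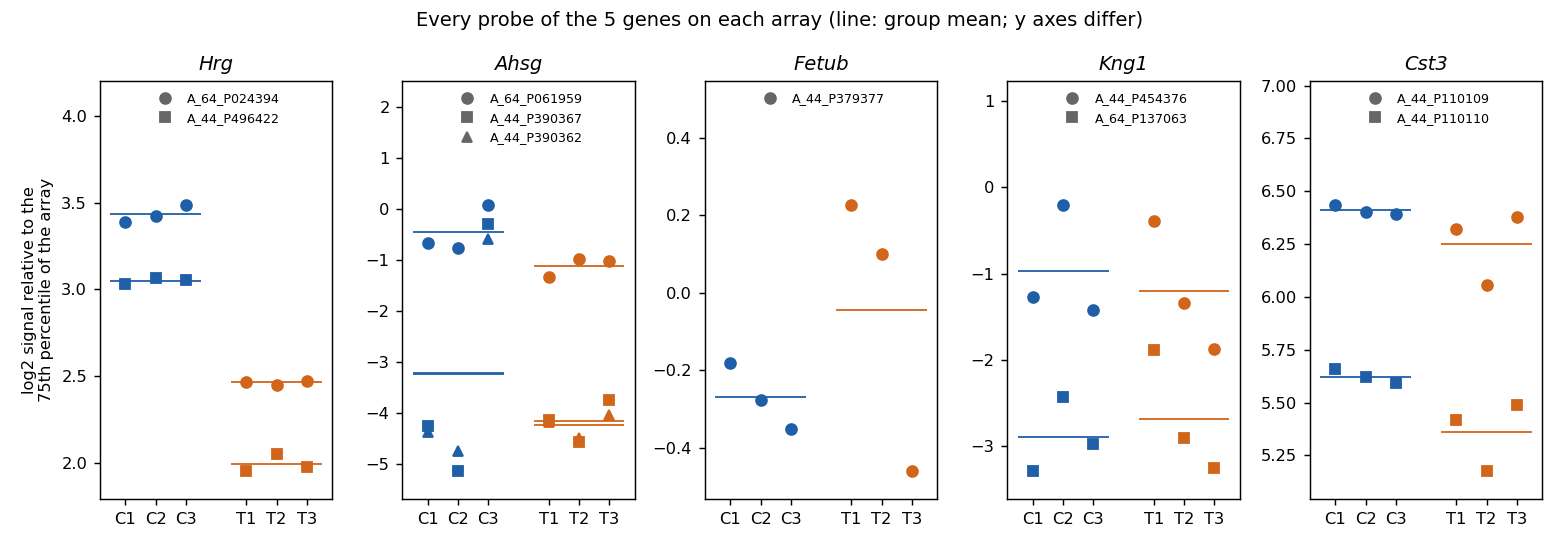
Level of each probe of the 5 genes on each array, in log2 units above or below the array's 75th percentile (C, control; T, treated; each symbol is 1 probe and each line a group mean; the vertical axes differ). Hrg is lower on all treated arrays at both probes, Ahsg is high on control replicate 3 at all 3 probes, and the groups overlap for Fetub and Kng1.

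Profiles over the 6 arrays were centred on each gene's own mean and compared with that of Hrg by root mean square distance. Genes with symbols starting LOC, RGD or AABR were left out, and the 5 nearest others are named. They were Fam3d, a secreted cytokine-like protein gene (distance 0.10, Pearson r 0.99), and Col4a4, a collagen IV chain of the glomerular basement membrane (distance 0.14, r 0.96). Next came Bex2 (distance 0.14, r 0.96), Elf5, a transcription factor of collecting duct principal cells (distance 0.16, r 0.95), and Agmat, which encodes agmatinase (distance 0.16, r 0.95). All 5 were lower in treated animals, by 0.83 to 1.09 on the log2 scale, as a profile near that of Hrg must be. Likeness was taken over 6 arrays in 2 groups and is a description only.

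On rat chromosome 11, in the order of the GRCr8 gene table, the run goes Kng1, Kng2, Kng2l1, Hrg, Fetub and Ahsg, with pseudogenes, a long non-coding RNA gene and an Hrg-like gene among them that no array probe matched. The nearest tested genes on either side of Hrg had higher, not lower, means in treated animals. Fetub had a difference of 0.22 and Kng2l1 one of 0.57, with neither past the threshold (limma adjusted p = 0.267 for Kng2l1). Of the 3 tested genes before the run, Adipoq, Rfc4 and Eif4a2 had differences of -0.14, 0.13 and -0.12. The 3 after it, Dnajb11, Tbccd1 and Crygs, had differences of -0.051, 0.026 and 0.10. None of these 6 flanking genes passed (limma adjusted p from 0.244 to 0.873).

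Ahsg, next to Fetub at the end of that run, differed more between control animals than between the groups. At probe A_44_P390362 the levels were -4.37, -4.75 and -0.58 in controls and -4.18, -4.50 and -4.04 in treated animals. At A_44_P390367 they were -4.25, -5.14 and -0.29 against -4.14, -4.58 and -3.75. Control replicate 3 was thus 15.8-fold and 21.1-fold above the mean of the other controls at these probes, and above every other array by at least 3.46 on the log2 scale. At the brightest probe, A_64_P061959, the levels were -0.66, -0.75 and 0.072 in controls and -1.33, -0.99 and -1.01 in treated animals. There control replicate 3 was again highest, but by only 1.72-fold over the other controls. The 3 probes match the same accession and did not measure the same pattern.

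The direction of the Ahsg difference rested on that 1 animal at 2 of the 3 probes. With all arrays, treated animals were lower by 1.00 (SE 1.34), 0.93 (SE 1.51) and 0.66 (SE 0.28) on the log2 scale at the 3 probes in the order above. Without control replicate 3 the differences were 0.32, 0.54 and -0.40, so the first 2 turned to higher and the last shrank to 1.32-fold lower. At the brightest probe the groups did not overlap, with a gap of 0.23. Of all genes tested, 18.7% showed no overlap with treated animals lower and 14.1% with treated animals higher.

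Other plasma protein genes of the liver were high in the same control animal. Of 27 tested genes of a list of 33, 20 were highest on control replicate 3, and 15 exceeded every other array by more than 2-fold. Alb, the albumin gene, had levels of -1.05, -1.49 and 3.89 in controls and -0.58, -1.11 and -0.03 in treated animals. Ttr, which encodes the thyroid hormone carrier transthyretin, had -1.88, -2.27 and 3.14 in controls and -1.58, -2.03 and -1.09 in treated animals. Both are named here after their values were seen. The signal summed over the list, in units of the 75th percentile of the array, was 139, 114 and 178 in controls and from 120 to 123 in treated animals.

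The list gave no called gene with limma (0 of 27, and at an unadjusted p under 0.05 there were 1 higher and 1 lower, where 11.8% and 13.2% of all genes passed). Its median difference was -0.56, against -0.030 for all genes tested, and turned to 0.19 without control replicate 3, when 15 members had a higher mean and 12 a lower one. Apoh and A2m, which encode a phospholipid-binding apolipoprotein and a protease inhibitor, had the smallest p, with differences of -1.80 (adjusted p = 0.102) and 0.42 (adjusted p = 0.164).

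Among 12 hepatocyte markers, 10 had a probe well above background on control replicate 3 and 7 or 8 on each other array. F9 and C9 were above it on control replicate 3 only, and Tat and Cyp7a1 on no array. Their signal summed over the 7 tested markers was 105, 91.0 and 115 in controls and from 92.2 to 98.5 in treated animals. That sum is carried by Serpinc1, the antithrombin gene, at 6.39 to 6.63 on every array. Whether liver transcripts in that sample account for its Ahsg values was not tested. At the Hrg probes control replicate 3 differed from the mean of the other controls by 0.079 and 0.0077, and it was the highest array at the brighter probe, by 0.060. Without that animal the treated mean was 1.92-fold and 2.08-fold lower.

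**Figure D2:**
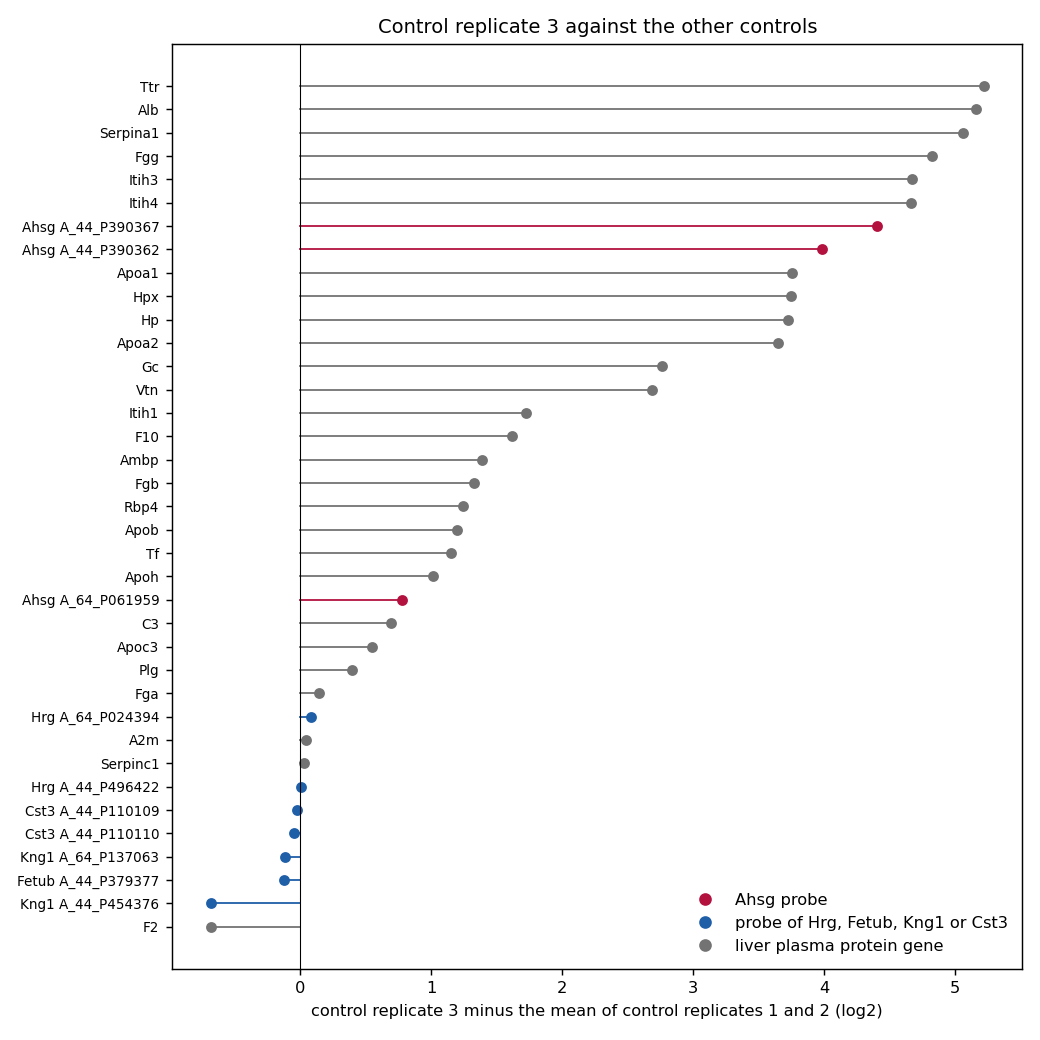
Control replicate 3 minus the mean of control replicates 1 and 2, on the log2 scale, for each member probe and each of the 27 tested liver plasma protein genes. Ahsg probes lie among the liver genes, at 0.78 to 4.40, while the Hrg probes lie at 0.0077 and 0.079.

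Promoter sequences of 3 of the 5 genes, Ahsg, Kng1 and Cst3, were matched in the RefSeq table of build GRCr8. They are shown so that 2 genes of the chromosome 11 run can be read beside Cst3, which lies on chromosome 3. Each is the 250 bases before the annotated start, 5′ to 3′ on the gene's own strand, which is the minus strand in each case: chr11:91632584-91632833 for Ahsg, chr11:91340149-91340398 for Kng1 and chr3:156793938-156794187 for Cst3. Capitals mark matches on either strand to any of 5 motifs: the element bound by HNF1, written GTTAAT, the element bound by HNF4, written CAAAGTNCA, the element bound by C/EBP proteins, written TTGCNNAA, the core of the antioxidant response element, written TGACNNNGC, and the TATA box, written TATAAA.
Ahsg: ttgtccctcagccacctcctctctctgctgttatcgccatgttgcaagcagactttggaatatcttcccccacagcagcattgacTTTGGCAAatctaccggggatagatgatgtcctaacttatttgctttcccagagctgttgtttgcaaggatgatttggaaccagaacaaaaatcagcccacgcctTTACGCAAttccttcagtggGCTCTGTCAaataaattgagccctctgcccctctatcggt
Kng1: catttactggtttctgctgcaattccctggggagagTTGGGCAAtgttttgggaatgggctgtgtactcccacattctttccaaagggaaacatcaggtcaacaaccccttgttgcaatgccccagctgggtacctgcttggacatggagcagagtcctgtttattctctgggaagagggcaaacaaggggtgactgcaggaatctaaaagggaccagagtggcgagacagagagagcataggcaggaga
Cst3: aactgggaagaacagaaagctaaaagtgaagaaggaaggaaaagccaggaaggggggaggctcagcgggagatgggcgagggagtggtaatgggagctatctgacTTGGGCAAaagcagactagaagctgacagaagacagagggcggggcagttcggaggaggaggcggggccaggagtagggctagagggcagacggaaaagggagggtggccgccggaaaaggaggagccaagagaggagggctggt
Ahsg held 2 C/EBP-type matches, TTTGGCAA and TTACGCAA, which end 158 and 53 bases before the start, and 1 antioxidant-type match, GCTCTGTCA, which ends 32 bases before it. Kng1 and Cst3 each held 1 C/EBP-type match, TTGGGCAA. No listed match to the HNF1, HNF4 or TATA letters was found in these 3 windows. Of 33469 promoters of the same length, 9.22% held the C/EBP letters, 10.1% the antioxidant letters, 6.45% the HNF1 letters, 1.06% the HNF4 letters and 12.9% the TATA letters. The Cst3 window was 58.8% G and C, against 47.6% for Ahsg and 51.2% for Kng1. A match describes the letters and is not a shown binding site.

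Fetub varied little between animals in control cortex and more in treated cortex. Its levels were -0.18, -0.28 and -0.35 in controls and 0.23, 0.10 and -0.46 in treated animals. Treated replicates 1 and 2 lay above all controls and treated replicate 3 below all of them, so the groups overlapped. The mean difference was 0.22 (SE 0.22, n = 3 each), and it ran from 0.090 to 0.43 when 1 array at a time was left out.

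Kng1, a kininogen gene, varied between animals by more than the groups differed. At probe A_44_P454376 the levels were -1.27, -0.21 and -1.42 in controls and -0.39, -1.34 and -1.87 in treated animals. At A_64_P137063 they were -3.28, -2.43 and -2.97 against -1.88, -2.90 and -3.25. Control replicate 2 and treated replicate 1 were the 2 highest arrays at both probes. The differences had opposite signs, -0.23 (SE 0.58) at the first probe and 0.22 (SE 0.48) at the second, and both lay within the spread of their groups. The range over the 6 arrays at the first probe was 3.16-fold, and 97.5% of genes tested had a smaller standard deviation within groups. Its difference turned from negative to positive without control replicate 2 or without treated replicate 3, with a highest value of 0.14.

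The neighbouring kininogen gene Kng2 ranked the 6 animals, at its brighter probe, in the same order as the first Kng1 probe. There, at A_44_P151156, its levels were -0.73, 0.24 and -1.01 in controls and 0.056, -0.88 and -1.32 in treated animals. Kininogen genes are close relatives whose names have changed between annotations, and these probes may not separate their transcripts. Kng2l1, a further kininogen gene, followed another order, with -2.16, -2.83 and -2.10 in controls and -1.49, -1.65 and -2.24 in treated animals. Control replicate 2, the highest array at the first Kng1 probe, was the lowest for Kng2l1.

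Several genes of the proximal tubule had control replicate 2 as their highest array, as the first Kng1 probe did. Slc7a13, an amino acid transporter of the late proximal tubule, had levels of 2.51, 5.89 and 4.23 in controls and 4.17, 1.38 and 2.57 in treated animals. Slc22a7, an organic anion transporter, had -3.88, -1.01 and -2.91 against -1.48, -4.13 and -3.59. Mep1b, a brush border meprin subunit, had 1.57, 4.16 and 2.60 against 3.42, 0.83 and 1.97. Mme, the brush border peptidase neprilysin that degrades kinins, had 1.27, 2.94 and 1.42 against 1.71, 0.81 and 1.00. Control replicate 2 ranked first for all 4, and treated replicate 1 came next for Slc22a7, Mep1b and Mme but behind control replicate 3 for Slc7a13. These 4 genes were picked after their values were seen, and the other animals did not keep their Kng1 order in them. Of the 16 proximal tubule markers, 4 were highest on control replicate 2 and 1 on treated replicate 1, and their summed signal ran from 2938 to 3114 in controls and from 2795 to 2836 in treated animals. The part of these genes in the Kng1 values was not tested.

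**Figure D3:**
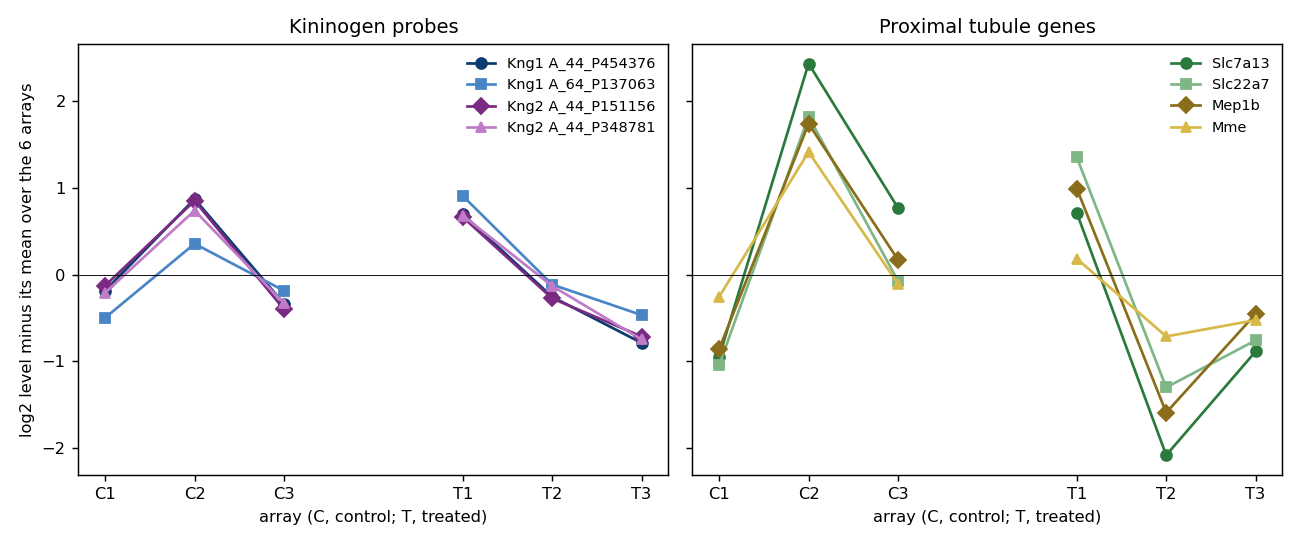
Levels of the Kng1 and Kng2 probes (left) and of 4 proximal tubule genes (right) on each array, as log2 level minus the mean of that probe over the 6 arrays (C, control; T, treated). Control replicate 2 and treated replicate 1 are high in both panels.

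Cst3 varied between animals about as much as the median gene, with a smaller standard deviation within groups for 51.4% of genes. At A_44_P110109 the levels were 6.43, 6.40 and 6.39 in controls and 6.32, 6.06 and 6.38 in treated animals. At A_44_P110110 they were 5.66, 5.62 and 5.59 against 5.42, 5.18 and 5.49. The groups did not overlap, but at the first probe the gap was 0.015, and treated replicate 2 was the lowest array at both. The differences were -0.16 (SE 0.10) and -0.26 (SE 0.097), or 1.12-fold and 1.20-fold lower. The first lies within the range of the spike-in differences, -0.19 to -0.065. At the first probe the difference was -0.060 without treated replicate 2. Counting the probe that represents each gene, Hrg, Ahsg and Cst3 (3 of 5) had no overlap with treated animals lower, and Fetub and Kng1 overlapped. Of all genes, 18.7% had no overlap in that direction, and nothing is read from the count because the set was chosen on this contrast.

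Among 9 further cystatin-fold genes tested, limma called 0. At an unadjusted p under 0.05, which 11.8% of all genes passed higher and 13.2% lower, 1 of the 9 was higher and 0 lower. Their median difference was 0.058, against -0.030 for all genes. Cst7, cystatin F of leukocyte lysosomes, had levels of -2.17, -1.99 and -1.81 in controls and -1.51, -1.60 and -1.61 in treated animals, with no overlap (difference 0.42, limma adjusted p = 0.079). Kng2l1, given above, had the next smallest p. Cstb, the intracellular cystatin B, had a difference of 0.10 with overlapping groups. Rarres1, a latexin relative, ran from -0.92 to 1.61 within controls alone. A further 11 genes of the list, among them Csta, Cst8 and Cst11, had probes but were not well above background on every array of either group.

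The cysteine proteases that cystatins restrain differed little. Of 10 tested, cathepsins and legumain together, limma called 0. At an unadjusted p under 0.05 there was 1 higher and 0 lower, where 11.8% and 13.2% of all genes passed. All differences of the 10 lay between -0.19 and 0.19. The median was -0.082. Ctsl, cathepsin L, was 7.08, 6.99 and 7.06 in controls and 7.12, 7.26 and 7.30 in treated animals, a difference of 0.18 (limma adjusted p = 0.171). Ctsf, cathepsin F, had a difference of -0.16 (adjusted p = 0.272). Ctsb, cathepsin B, named after its values were seen, had one of -0.058 at levels of 8.56 to 8.83.

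In the kallikrein-kinin system, 1 of 21 genes tested was called higher with limma and 0 lower, against 3.05% and 1.33% of all genes. It was Bdkrb2, the constitutive bradykinin receptor, with levels of -3.36, -3.44 and -3.28 in controls and -2.95, -2.99 and -2.87 in treated animals. The treated group lay wholly above the controls, and Bdkrb2 rose 1.34-fold (difference 0.42, SE 0.057, limma adjusted p = 0.036). The call was lost in 5 of 6 fits that left out 1 array and held without control replicate 2. Bdkrb1, the inducible receptor, had a difference of 0.095 with overlapping groups. The list's median was 0.095. Klk1c12 was well above background on 2 of 3 control arrays and entered the fit only through the treated group, where its mean was higher. Of the other 20 genes, 10 had a higher and 10 a lower mean, with a median of 0.044. At an unadjusted p under 0.05 there were 2 higher and 3 lower, where 11.8% and 13.2% of all genes passed.

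Tissue kallikreins, which release kinins from kininogen in the connecting tubule, had higher means in treated animals without a call. Klk1 was 7.37, 7.46 and 7.28 in controls and 7.28, 7.67 and 7.53 in treated animals (difference 0.13, limma adjusted p = 0.540). Klk1c8, named after its values were seen, was 4.49, 4.56 and 4.23 against 4.77, 5.25 and 5.10, with no overlap (difference 0.61, adjusted p = 0.083). Members of the Klk1 family are near copies of each other, and their values are uncertain to that extent. Of the kinin-degrading enzymes, Cpm and Xpnpep2 had no overlap with treated animals lower (differences -0.40 and -0.22, limma adjusted p = 0.082 and 0.068), and Ace, Mme and Ece1 overlapped. Xpnpep1, Prcp and Cpn1 of the same list also overlapped, with differences of 0.14, -0.055 and -0.018. Of all genes, 18.7% were lower and 14.1% higher without overlap. Cpm and Xpnpep2 were likewise named after their values were seen.

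**Figure D4:**
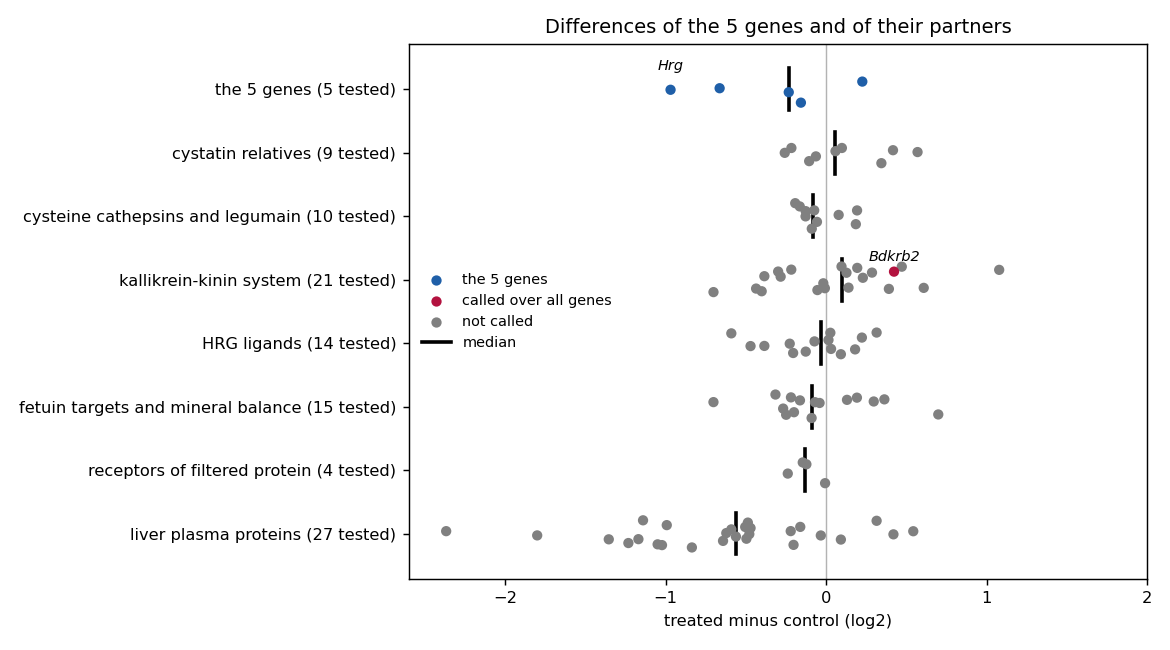
Treated minus control difference (log2) of the 5 genes and of every tested gene of 7 lists of their partners, with the median of each list as a black bar. Bdkrb2 is the only called gene in the lists, and the liver plasma proteins have the lowest median, -0.56.

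Genes for ligands of histidine-rich glycoprotein gave 0 calls of 14 with limma, with a median difference of -0.029. At an unadjusted p under 0.05 there were 0 of the 14, where 11.8% of all genes were higher and 13.2% lower. Plg, plasminogen, was 0.10, -0.054 and 0.42 in controls and 0.58, 0.46 and 0.36 in treated animals, so the groups overlapped (difference 0.31, limma adjusted p = 0.224). Hpse, heparanase, had a difference of 0.22 (adjusted p = 0.354). Without control replicate 3, 3 of the 14 were higher at an unadjusted p under 0.05 and 0 were called. In that fit 2473 of all 12130 genes had an unadjusted p under 0.05 in either direction. It called 0 genes in all, so no list could hold a call.

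Fetuin targets and genes of mineral balance gave 0 calls of 15 with limma, with a median of -0.091, and at an unadjusted p under 0.05 there were 4 higher and 1 lower, where 11.8% and 13.2% of all genes passed. Ankh, a pyrophosphate exporter, was -0.18, -0.41 and -0.16 in controls and 0.034, 0.17 and 0.13 in treated animals, with no overlap (difference 0.36, adjusted p = 0.074). Spp1, osteopontin, was 2.40, 2.28 and 2.84 against 3.35, 3.36 and 2.91, again with no overlap (difference 0.70, adjusted p = 0.101). Mep1a, a meprin subunit that fetuins inhibit, had a difference of -0.091 with overlapping groups.

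Receptors that take up filtered proteins such as cystatin C gave 0 calls of 4 with limma. At an unadjusted p under 0.05 there was 1 lower and 0 higher, where 13.2% and 11.8% of all genes passed. Dab2, the adaptor of megalin, was 5.02, 4.84 and 5.04 in controls and 4.77, 4.59 and 4.80 in treated animals (difference -0.24, adjusted p = 0.174). Lrp2, megalin itself, was 6.41, 6.48 and 6.34 against 6.24, 6.25 and 6.30 (difference -0.15, adjusted p = 0.200). The groups did not overlap for either gene, and 18.7% of all genes had no overlap in that direction. The Lrp2 difference lies within the range of the spike-in differences, -0.19 to -0.065.

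Each of the 5 genes kept the sign of its difference under 8 settings other than leaving out an array, though the order of Kng1 and Cst3 did not hold. With no filter, the stricter filter and the replicate block, the differences were the reported ones, so these settings could not change a sign. The value table holds the same scaled signal and gave nearly the same differences. Probes fitted alone are not among the 8 settings, and the second Kng1 probe had a difference of 0.22. The Hrg difference lay between -1.01 and -0.95, the Ahsg difference between -0.87 and -0.53, and that of Cst3 between -0.21 and -0.095. Fetub lay between 0.12 and 0.23, and Kng1 between -0.27 and -0.0080. Median scaling set the median of all genes at -0.064, against -0.030 as reported, and no scaling moved it by more than 0.1.

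**Figure D5:**
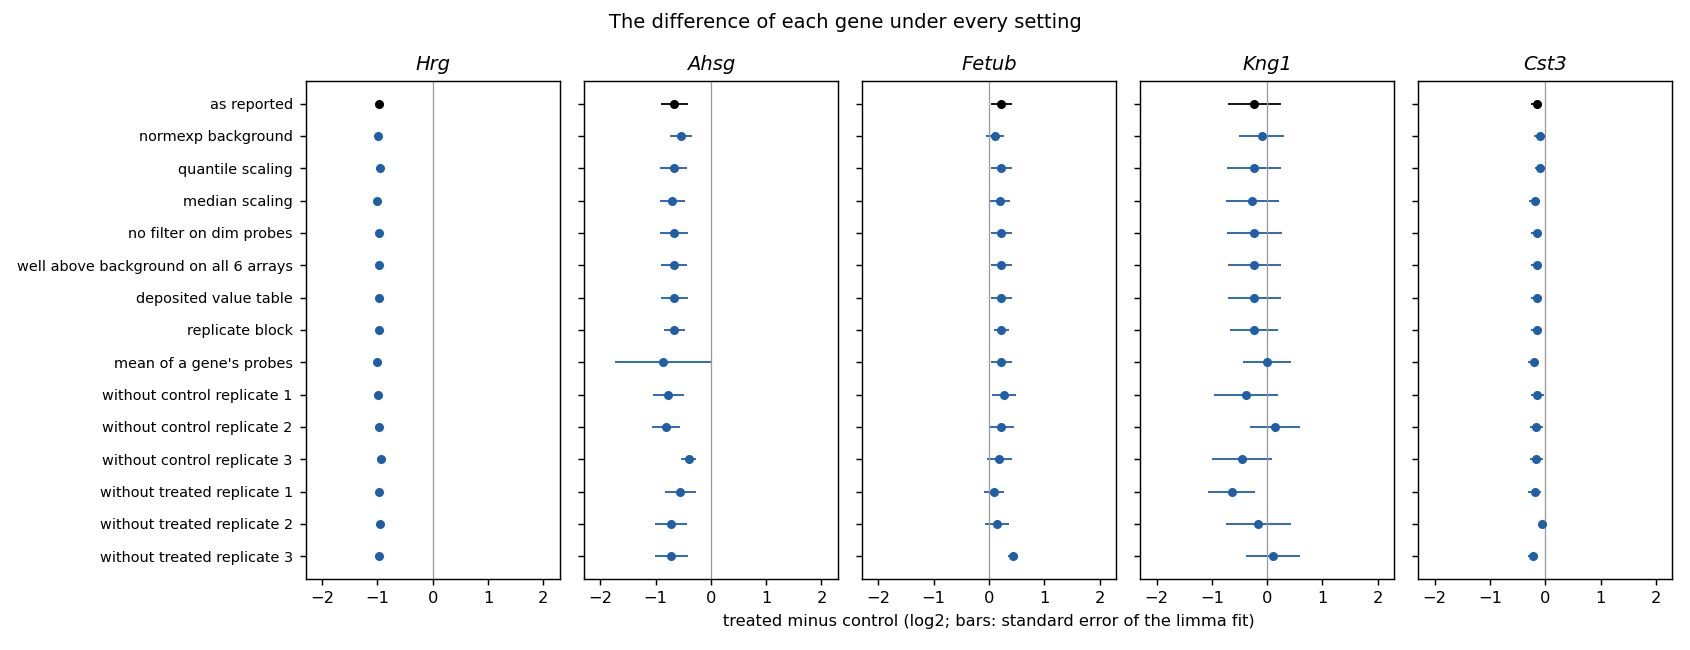
Treated minus control difference (log2) of each gene as reported and under every alternative setting, with the standard error of the limma fit as a bar. Hrg stays between -1.01 and -0.94 in all of them, Ahsg moves to -0.40 without control replicate 3, and Kng1 changes sign when control replicate 2 or treated replicate 3 is left out.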

How the data were processed

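The 5 genes, the lists of partners and the tests were chosen with earlier results of these data known. Per the file headers, the scanner software was Feature Extraction 10.7.1.1 on a design tied to build rn4 (the submitters' processing notes give version 10.7), and the deposited Cy3 intensity is background-subtracted and not scaled between arrays. The authors' deposited value table holds, as a ratio, the signal over the 75th percentile of its array (median ratio to that quotient 0.998, column medians 0.105 to 0.110).

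Here log2 intensity minus each array's 75th percentile (837 to 1001) was used. Outlier spots, 1 to 3 per array, were missing and none was saturated. Accessions without versions named 28206 probes through the RefSeq table of GRCr8, whose coordinates are not used for rn4 probes. Probes well above background on all arrays of a group were kept, and the brightest kept probe represented each gene. The 12130 genes were fitted with limma 3.58.1 in R 4.3.3 (Benjamini-Hochberg, threshold 0.05), tested on simulated data. For the 5 genes, SE is that of the difference of 2 group means. The number of arrays limits the precision.

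By rule, the text names all 5 genes, the genes flanking the run and the 5 nearest to Hrg in profile. Symbols starting LOC, RGD or AABR were left out of that ranking. Per list it names up to 4 called genes or, where none is called, the 2 with the smallest p. Other genes are named outside this rule, among them Cstb, Rarres1, Bdkrb1, Klk1, Ace, Ece1 and Mep1a. Alternatives were a normexp background on median signals (offset 50), median scaling, quantile scaling, a stricter filter, no filter, the value table, a replicate block, the mean of a gene's probes, every probe fitted alone and leaving out each array. Slide and scan could not be fitted as a block.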

Additional observations from a re-analysis of the deposited data

How the results depend on the processing

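Over all genes, 370 were called higher and 161 lower. The counts were 459 and 507 with a normexp background (47.5% of calls higher, against 69.7%), 37 and 7 with no filter on dim probes (84.1% higher), 229 and 63 with the mean of a gene's probes (78.4% higher), and 0 and 0 with the replicate block. Fitting each of the 40988 kept probes alone called 2039 probes higher and 715 lower. Leaving out 1 array gave from 0 to 48 higher and from 0 to 6 lower. The deviations of animals with the same replicate number correlated at -0.12, -0.11 and 0.089, so the numbers do not pair the animals, and 2547 genes had an unadjusted p under 0.05 with the block. The call of 1 kallikrein-kinin gene was lost (0 called) with no filter, with the replicate block and with the mean of a gene's probes, and leaving out 1 array gave from 0 to 1. A normexp background called 1 further cystatin gene and 2 genes of the fetuin list. The median of the further cystatin genes was -0.24 with no filter, which adds the 11 genes of that list not kept otherwise. That of the filtered-protein receptors was -0.19 with normexp, -0.066 with quantile scaling and -0.078 with the mean of a gene's probes. The Hrg difference was -1.01 with the mean of its probes, whose second probe has the larger difference. Other causes of these changes were not tested.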

Other observations

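Control replicates 2 and 3 each held genes that exceeded every other array by more than 2-fold, 48 and 69 of 12130 genes tested, against 5 on control replicate 1 and 8, 11 and 11 on the treated arrays. On control replicate 3 the furthest apart were Ttr and Mug1, a plasma protease inhibitor of rodents, at 18.8-fold and 18.3-fold over the next array. Fabp1, the liver fatty acid-binding protein, stood 15.0-fold above the next array there. On control replicate 2 the furthest apart were Smcp, a sperm mitochondrial protein gene, at 14.1-fold, and Anxa13, an annexin of epithelia, at 8.99-fold. Prm1, which encodes a protamine of sperm chromatin, was 6.35-fold and Slco1a1, an organic anion transporter, 5.57-fold above the next array. These genes were named after their values were seen, and their source was not tested.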
